A study of Mus musculus with 8 samples.

Results

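The 38 genes described here encode the proteins that add acetyl groups to histones, remove them and read them, together with the scaffolds that hold the removing enzymes on chromatin. They were chosen by name from the 24346 genes of the deposited expression table, and all 38 were found in it. Their expression was compared between 4 libraries of Med23+/+ immature oligodendrocytes (iOLs) and 4 libraries of Med23-/- iOLs. MED23 is a subunit of Mediator, the complex that carries signals from transcription factors to RNA polymerase II. Oligodendrocyte progenitor cells (OPCs) were immunopanned with a CD140a antibody from mouse brains at postnatal day 7, expanded with PDGF-AA and NT-3, and then kept for 1 day in 15 nM T3 (the active thyroid hormone) and 10 ng/mL ciliary neurotrophic factor. The Med23-/- cells came from Med23 fl/fl;Olig1-cre mice, in which the Cre recombinase is made in the oligodendrocyte lineage, and the control littermates carried Med23 fl/fl without Cre, so that the floxed alleles were common to both groups, called controls and knockout below. The labels do not say whether the 4 libraries of a genotype came from separate animals or separate cultures. The p-values therefore measure the spread between these libraries, which may be technical.

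Histone acetyltransferases place acetyl groups on lysines of the histone tails, which loosens chromatin and marks active promoters and enhancers. Histone deacetylases (HDACs) and the NAD-dependent sirtuins take these groups off again, several of them inside complexes built on NCoR, SIN3 or CoREST scaffolds, and bromodomain proteins bind the acetylated tails. In the oligodendrocyte lineage HDAC1 and HDAC2 are known to be needed for differentiation, and SIRT2, a deacetylase of tubulin and histones, is abundant in oligodendrocytes and in myelin. The comparison asks whether loss of MED23 changed the RNA of this acetylation machinery.

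Levels are given as FPKM (fragments scaled by transcript length and by library size), so that different genes can be set side by side. Between 15941 and 16469 genes were above 0 in the 8 libraries, and 1 read was worth between 0.751 and 1 times its worth in Med23+/+ replicate 1, as estimated from values under 0.3 FPKM. The files give no read counts, so the absolute depth is unknown. The targeted gene Med23 gave 12.5 ± 0.225 FPKM in the controls against 8.26 ± 0.247 FPKM in the knockout (SD, n = 4 each), so 0.658 times its control level was still read in the libraries labelled Med23-/-. The paper checked the efficiency of the deletion on protein, by western blot of primary OPCs. Why Med23 RNA was still read was not tested here. All 8 markers of the oligodendrocyte lineage were above 1 FPKM on average, with a summed level of 1877 to 2158 FPKM in the controls and 1578 to 2089 FPKM in the knockout and 4 of them called lower and 2 higher, whereas the 7 microglial and 6 endothelial or mural markers all had means under 1 FPKM. The summed level of 7 neuronal markers was 197 to 219.95 FPKM in the controls against 281 to 349 FPKM in the knockout, with all 7 called higher and none of them at 0 in any library. The summed level of 7 astrocyte markers was 177 to 216 FPKM in the controls against 67.4 to 109 FPKM in the knockout, with 3 called lower and 1 higher, and none of them at 0 in any library. The astrocyte marker S100b, which cells of the oligodendrocyte lineage can also make, was at 105 to 161 FPKM in the controls and at 9.31 to 23.6 FPKM in the knockout. The part of other cell types in the differences below was not tested.

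Sirt2 fell to 0.236 times its control level in the Med23-/- iOLs, Hdac1, Hdac2 and Kat2a fell by smaller amounts, and Hdac4, Hat1, Ncoa1, Hdac7 and Hdac6 rose. The other 29 genes, among them Ep300 and Crebbp, did not pass the test. All 38 genes had a mean of at least 1 FPKM and were tested with limma on log2(FPKM + 1) together with every other gene above that limit, 12328 in all. A gene was called at a Benjamini-Hochberg adjusted p under 0.05. Of the 38 genes, 4 were called lower and 5 higher, 23.7% in all, where 14.1% of all genes tested were called lower, 15.9% higher and 30.0% in either direction. The share of the acetylation genes that changed was thus no higher than the share among all genes. Their median log2 fold change was 0.03 and the median size of the change, whatever its sign, was 0.13, beside -0.01 and 0.21 for all genes tested. On the log2(FPKM + 1) scale a called change of more than 2-fold was reached by Sirt2 alone, which fell, although the ratio of the mean FPKM of Hdac4 was 2.03. On the log2(FPKM + 1) scale, 1.75% of all genes tested were called lower and 2.98% higher by that much, 4.73% together. Without Med23+/+ replicate 4, Hdac4 passed this limit too, for 2 genes. The libraries of the genotypes did not overlap for 3 genes that were lower and 4 that were higher, where 15.3% and 16.3% of all genes tested had no overlap in these directions. The count of lower genes fell from 4 to 2 without Med23+/+ replicate 3 or without Med23-/- replicate 1.

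**Figure D1:**
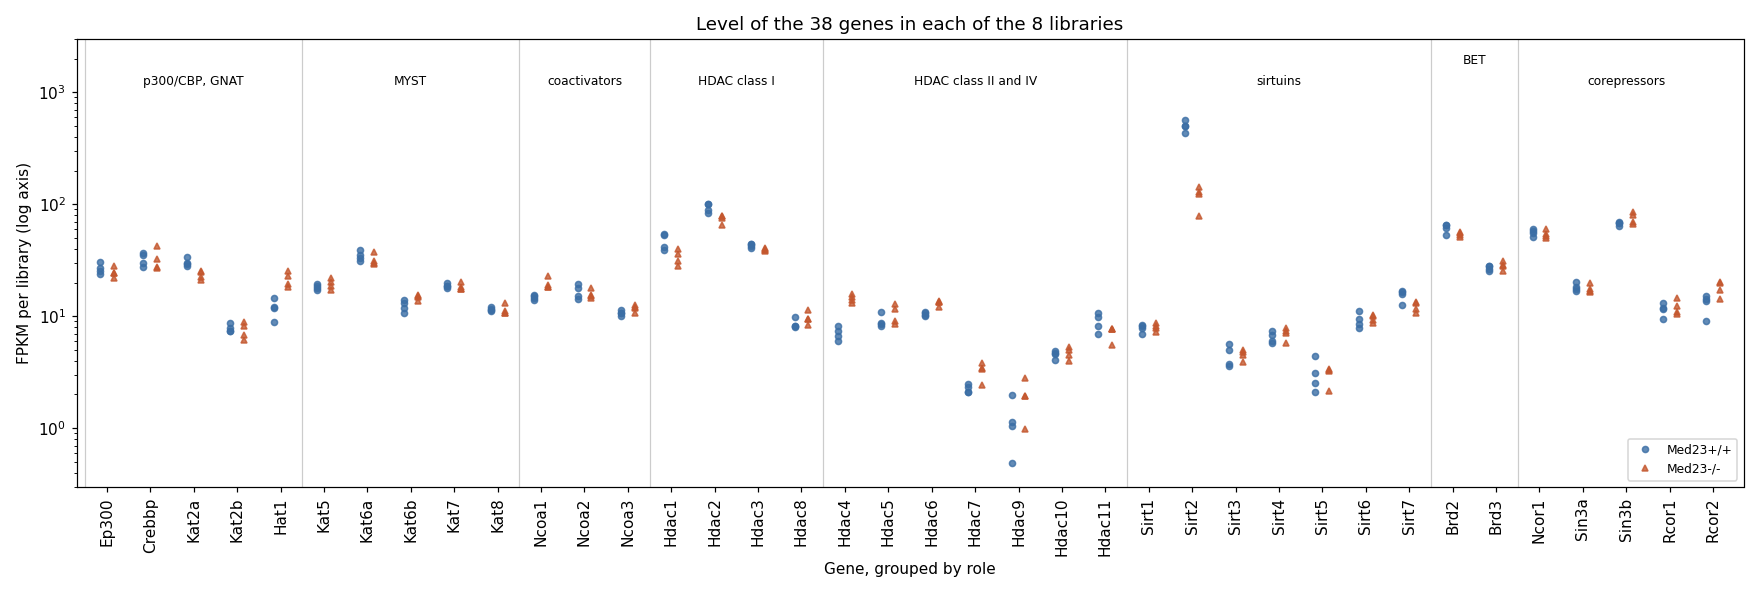
FPKM of the 38 genes in each library on a log axis, grouped by role (circles, 4 Med23+/+ libraries, and triangles, 4 Med23-/- libraries). Sirt2 stands above all other genes in Med23+/+ iOLs, at 437 to 569 FPKM, and lies at 78.1 to 144 FPKM in Med23-/- iOLs.

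**Figure D2:**
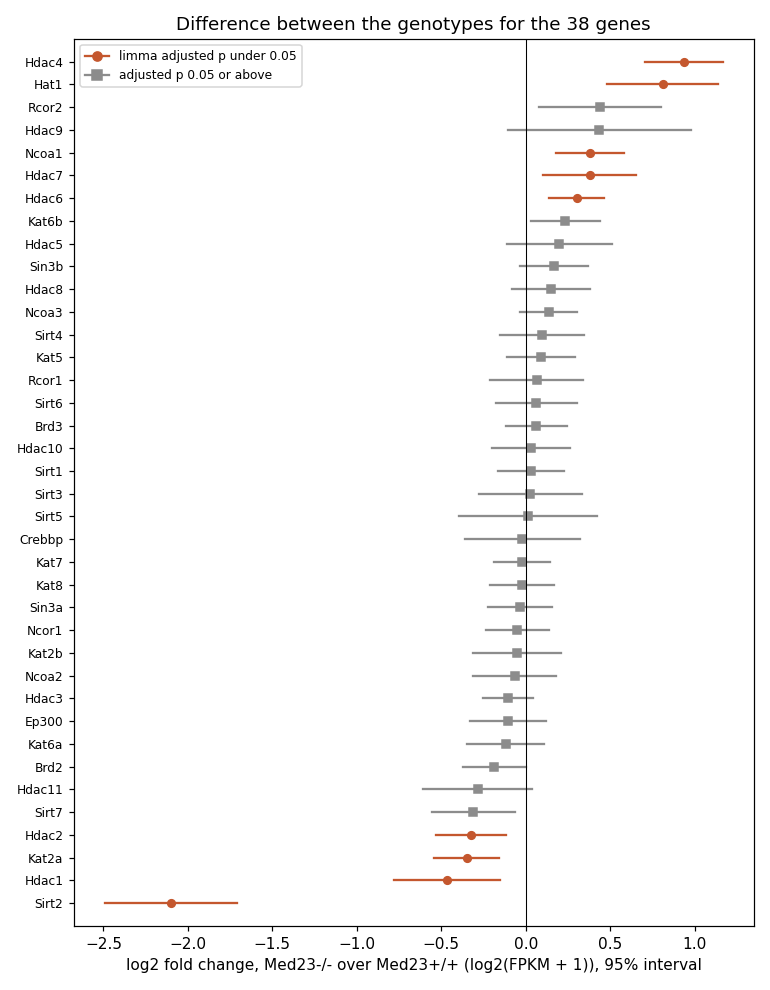
Log2 fold change of each gene, Med23-/- over Med23+/+, on the log2(FPKM + 1) scale, with its 95% interval from limma over 4 libraries per genotype. Circles mark the 9 genes with an adjusted p under 0.05 and squares the other 29, whose values lie between -0.31 and 0.44.

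In Med23+/+ iOLs the levels of the 38 genes spanned from 1.16 ± 0.615 FPKM for Hdac9 to 500.1 ± 54.1 FPKM for Sirt2 (SD, n = 4 each). Their median was 12.8 FPKM, close to the median of 12.6 FPKM over all genes tested, and 25 of them were at 10 FPKM or more. After Sirt2 came Hdac2 at 93.6 ± 8.37 FPKM, Sin3b at 67.3 ± 2.48 FPKM, Brd2 at 61.6 ± 5.75 FPKM and Ncor1 at 56.2 ± 3.57 FPKM (SD, n = 4 each). Of the 37 pairs of neighbours in this order, only 6 had no overlap between their libraries, and these were Sirt2 above Hdac2, Hdac2 above Sin3b, Hdac3 above Kat6a, Ep300 above Kat7, Sirt4 above Hdac10 and Hdac7 above Hdac9. In Med23-/- iOLs Sirt2 was still first by its mean but overlapped with Sin3b, the next gene in the order. Hdac4 moved from place 32 to place 21 and Hat1 from place 21 to place 13, and Hdac9 stayed last.

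The promoters of 32 of the 38 genes could be read from RefSeq sequence on GRCm38.p6, the assembly known as mm10, as 300 bases around each annotated start. These were searched on both strands for GGGCGG, the core of the GC box that Sp1 binds, and for the E-box CACGTG, motifs that do not overlap each other. At least 1 promoter with GGGCGG was found for 26 of the 32 genes (81.2%), beside 70.9% of the 9295 tested genes with a promoter in the same table and 38.2% of all 27025 genes in it. A gene with more annotated promoters has more chances to count in this way. Counted by promoter, 30 of 46 (65.2%) held GGGCGG, beside 63.6% of the 11940 promoters of tested genes, so the shares were close. At least 1 promoter held GGGCGG for 5 of 5 genes called higher, 2 of 3 called lower and 19 of 24 not called. Hdac7, among those called higher, had 4 promoters with between 0 and 1 core each. CACGTG was found for 5 of the 32 genes (15.6%), beside 11.8% of the tested genes and 8.09% of all genes. By promoter the shares were 10.9% for the 32 genes and 9.88% for the tested genes. A match describes these letters and not a bound site, and Kat6a, Ncoa2, Ncoa3, Hdac1, Hdac3 and Hdac10 were not matched.

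Shown here are the 250 bases before the start of the 2 genes with the largest fall and the 2 with the largest rise among called genes matched to a promoter, 5′ to 3′ on the gene's strand, with GGGCGG and its reverse complement CCGCCC in capitals. They are Sirt2 (chr7:28766502-28766751, plus strand) and Kat2a (chr11:100712468-100712717, minus strand), which fell, and Hdac4 (chr1:92180342-92180591, minus strand) and Hat1 (chr2:71389010-71389259, plus strand), which rose. The starts are those of RefSeq, which lie inside the span of the GENCODE gene for Sirt2, Hdac4 and Hat1.
Sirt2: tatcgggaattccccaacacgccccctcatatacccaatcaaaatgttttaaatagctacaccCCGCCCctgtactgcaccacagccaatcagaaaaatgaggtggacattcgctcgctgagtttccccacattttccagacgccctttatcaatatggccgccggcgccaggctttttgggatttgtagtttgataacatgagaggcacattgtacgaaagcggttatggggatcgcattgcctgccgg
Kat2a: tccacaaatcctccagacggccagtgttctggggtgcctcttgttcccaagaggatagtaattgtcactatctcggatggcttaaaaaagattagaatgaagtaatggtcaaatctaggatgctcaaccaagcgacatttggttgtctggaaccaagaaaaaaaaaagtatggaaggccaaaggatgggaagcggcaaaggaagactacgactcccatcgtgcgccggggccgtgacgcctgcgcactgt
Hdac4: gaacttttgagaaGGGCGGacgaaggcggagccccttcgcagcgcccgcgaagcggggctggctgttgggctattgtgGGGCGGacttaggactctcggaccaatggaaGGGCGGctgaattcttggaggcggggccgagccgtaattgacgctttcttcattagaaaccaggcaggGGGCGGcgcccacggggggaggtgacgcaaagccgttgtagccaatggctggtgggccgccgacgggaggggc
Hat1: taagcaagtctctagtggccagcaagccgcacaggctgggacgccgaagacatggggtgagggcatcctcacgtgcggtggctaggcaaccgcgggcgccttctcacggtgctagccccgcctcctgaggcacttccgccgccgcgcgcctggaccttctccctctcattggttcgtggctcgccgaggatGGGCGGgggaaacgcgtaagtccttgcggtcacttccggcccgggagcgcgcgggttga
The stretch before Sirt2 holds 1 GC box core, that before Kat2a none, that before Hdac4 4 and that before Hat1 1. Both a gene that fell and a gene that rose thus carry a single core, and the G and C content of the stretches was 50%, 48.8%, 65.2% and 67.6%, in the same order.

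Sirt2 (chromosome 7, 28766735 to 28788661 on mm10) encodes the mainly cytoplasmic sirtuin that deacetylates tubulin. In replicate order, the controls gave 497, 437, 569 and 497 FPKM and the knockout 123, 144, 127 and 78.1 FPKM. Every Med23-/- library lay far below every Med23+/+ library, and replicate 4 was the lowest. The mean fell from 500.1 ± 54.1 to 118 ± 28.1 FPKM (SD, n = 4 each), and the log2 fold change was -2.10 (± 0.17 SE, adjusted p = 4.69e-05 by limma). Among the 12328 genes tested Sirt2 had place 52 from the lowest log2 fold change. Of the 147 genes at least as high as Sirt2 in the controls, Sirt2 included, 14 had a log2 fold change as low or lower. The log2 fold change was -1.80 within replicates 1 and 2 and -2.40 within replicates 3 and 4, and its adjusted p was under 0.05 in every alternative tried. In RNA from whole cultures, fewer cells that carry a transcript and less of it per cell cannot be told apart.

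The other 6 sirtuins did not pass the test. Their log2 fold changes ran from -0.31 for Sirt7 to 0.09 for Sirt4. Sirt7, the nucleolar sirtuin, gave 16.3, 12.5, 15.8 and 16.7 FPKM in the controls against 13.0, 13.4, 11.5 and 10.6 FPKM in the knockout. Its groups overlapped through Med23+/+ replicate 2, and its limma adjusted p was 0.0573 with all libraries and 0.0170 without that library. Sirt1, the nuclear enzyme that acts on histones and on transcription factors, was between 6.90 and 8.72 FPKM in all 8 libraries. Sirt3, Sirt4 and Sirt5, which act in mitochondria, and Sirt6, a nuclear chromatin enzyme, had log2 fold changes of 0.03, 0.09, 0.01 and 0.06. Sirt2 made up 91.5% ± 0.464 of the summed sirtuin FPKM in the controls against 72.1% ± 5.11 in the knockout (SD, n = 4 each). The sum without Sirt2 was 46.3 ± 3.82 FPKM in the controls against 44.3 ± 1.92 FPKM in the knockout (SD, n = 4 each). Stretches of Sirt5 match other genes at 95% identity or more, so its low values are uncertain.

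The class I deacetylases are Hdac1, Hdac2 and Hdac3, whose enzymes work in SIN3, NuRD, CoREST or NCoR complexes, and Hdac8. Of these 4 genes, 2 fell and none rose, where 14.1% of all genes tested were called lower and 15.9% higher. With 4 genes the count does not set the class apart. Hdac2 (chromosome 10, 36974544 to 37001889) gave 84.4, 100.1, 101 and 88.5 FPKM in the controls against 65.4, 75.7, 78.5 and 78.4 FPKM in the knockout. The genotypes did not overlap, and the means of 93.6 ± 8.37 and 74.5 ± 6.22 FPKM (SD, n = 4 each) gave a log2 fold change of -0.32 (± 0.09 SE, adjusted p = 0.0248 by limma). Hdac1 (chromosome 4, 129516104 to 129542713) gave 41.7, 38.9, 53.9 and 53.5 FPKM in the controls against 30.9, 27.9, 35.9 and 40.1 FPKM in the knockout. Replicates 3 and 4 were above replicates 1 and 2 in both genotypes, and the genotypes overlapped. Every Med23-/- library lay below the Med23+/+ library of the same number, but the numbers were not taken as pairs. Its log2 fold change was -0.47 (± 0.14 SE, adjusted p = 0.0319 by limma), -0.44 within replicates 1 and 2 and -0.49 within replicates 3 and 4. The processed pseudogene Gm10093 matches 70.9% of the length of the Hdac1 transcript at 99.4% identity, and how reads were shared between them is not known. Hdac3, the catalytic partner of NCoR, was between 37.9 and 43.7 FPKM in all 8 libraries (log2 fold change -0.11, adjusted p = 0.255 by limma), and Hdac8 did not pass either (log2 fold change 0.15, adjusted p = 0.317 by limma). The limma adjusted p of Hdac2 rose to 0.0639, 0.0697 and 0.0665 without Med23+/+ replicate 2, Med23+/+ replicate 3 and Med23-/- replicate 1. That of Hdac1 rose to 0.0867, 0.0874, 0.0814 and 0.0782 without Med23+/+ replicate 3, Med23+/+ replicate 4, Med23-/- replicate 1 and Med23-/- replicate 2.

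Among the 7 deacetylases of classes II and IV, 3 rose and none fell, beside the 15.9% of all genes tested that were called higher and 14.1% lower, and this count too does not set the class apart. Hdac4 (chromosome 1, 91928779 to 92195699), a class IIa enzyme that shuttles between nucleus and cytoplasm and represses MEF2 targets, gave 7.33, 5.99, 6.67 and 8.25 FPKM in the controls. Its Med23-/- libraries had 14.0, 13.0, 14.8 and 15.7 FPKM, all above the highest Med23+/+ library. The mean rose from 7.06 ± 0.966 to 14.4 ± 1.14 FPKM (SD, n = 4 each), 2.03 times the control level, and the log2 fold change on the log2(FPKM + 1) scale was 0.94 (± 0.10 SE, adjusted p = 0.000205 by limma). The rise was 0.92 within replicates 1 and 2 and 0.95 within replicates 3 and 4. A long noncoding RNA gene on the opposite strand, Gm26720, overlaps 22.4% of the exonic bases of Hdac4, and whether reads were counted by strand is not given in the sources used here.

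Hdac6 (chromosome X, 7930120 to 7947889), the cytoplasmic deacetylase of tubulin, gave 10.1, 10.3, 10.8 and 10.9 FPKM in the controls against 13.4, 12.2, 13.8 and 13.3 FPKM in the knockout. The step was small but the libraries scattered little and did not overlap (log2 fold change 0.30 ± 0.07 SE, adjusted p = 0.0118 by limma). SIRT2 and HDAC6 are both known as tubulin deacetylases, and here the gene of the first fell and that of the second rose. Hdac7 (chromosome 15, 97792664 to 97844502), another class IIa enzyme, gave 2.51, 2.09, 2.11 and 2.32 FPKM in the controls against 3.43, 3.37, 2.44 and 3.82 FPKM in the knockout. Med23-/- replicate 3 lay within the control range, and the log2 fold change of 0.38 (± 0.12 SE, adjusted p = 0.0421 by limma) was close to the threshold. Leaving out any single library other than Med23-/- replicate 3 raised the limma adjusted p of Hdac7 above 0.05, to between 0.0526 and 0.101. Hdac5, Hdac9, Hdac10 and Hdac11 were not called. Hdac5, a class IIa enzyme, ranged from 8.14 to 10.9 FPKM in the controls and from 8.61 to 12.98 FPKM in the knockout, and Hdac10, a deacetylase of polyamines, from 4.04 to 4.86 FPKM and from 3.98 to 5.32 FPKM. Hdac11, the class IV enzyme, gave 10.7, 6.96, 9.89 and 8.21 FPKM in the controls against 7.68, 7.67, 7.64 and 5.51 FPKM in the knockout (log2 fold change -0.29, adjusted p = 0.164 by limma). Gm44002 and Gm14573, on the opposite strand, overlap 17.9% of the exonic bases of Hdac11, and whether reads were counted by strand is not given. Hdac9, the lowest of all 38 genes, ranged from 0.484 to 1.98 FPKM in Med23+/+ and from 0.980 to 2.78 FPKM in Med23-/- iOLs.

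The summed level of the class I genes was 192 ± 13.5 FPKM in the controls against 157 ± 10.6 FPKM in the knockout, whereas the sum of the class II and IV genes was 43.5 ± 3.82 and 55.1 ± 2.19 FPKM (SD, n = 4 each). Class I genes thus stayed the larger part in both genotypes.

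Ep300 and Crebbp, which encode the paired acetyltransferases P300 and CBP of enhancers, were not called. Ep300 gave 23.6, 25.5, 30.7 and 27.2 FPKM in the controls against 24.6, 24.5, 21.9 and 28.1 FPKM in the knockout. Its means were 26.8 ± 3.02 and 24.8 ± 2.52 FPKM (SD, n = 4 each), and the log2 fold change was -0.11, with a 95% interval of -0.33 to 0.12 and a limma adjusted p of 0.465. Crebbp gave 27.3, 29.95, 37.0 and 35.5 FPKM in the controls against 32.2, 26.9, 27.3 and 42.6 FPKM in the knockout. The log2 fold change of Crebbp was -0.02 with a 95% interval of -0.36 to 0.32 (limma adjusted p = 0.935), and its sign was not stable between alternatives. The intervals leave room for a change of Ep300 or Crebbp of up to about the size seen for Hdac2, and not for one the size of that of Sirt2.

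Hat1 and Kat2a were the 2 acetyltransferase genes that changed, in opposite directions. Hat1 (chromosome 2, 71388958 to 71441622) encodes the enzyme that acetylates newly made histones before they enter chromatin. It gave 11.9, 14.5, 8.93 and 12.1 FPKM in the controls against 19.4, 18.2, 22.8 and 25.4 FPKM in the knockout, with every Med23-/- library above every control. The mean was 1.81 times the control level (log2 fold change 0.81 ± 0.15 SE, adjusted p = 0.00297 by limma), and the log2 fold change was 0.48 within replicates 1 and 2 and 1.14 within replicates 3 and 4. Kat2a (chromosome 11, 100704746 to 100712465) encodes GCN5, the acetyltransferase of the SAGA and ATAC coactivator complexes. It gave 29.4, 27.9, 29.7 and 33.6 FPKM in the controls against 24.8, 22.4, 21.2 and 25.4 FPKM in the knockout. The groups did not overlap, and Kat2a fell to 0.778 times its control level (log2 fold change -0.35 ± 0.09 SE, adjusted p = 0.0138 by limma). Its paralogue Kat2b, which encodes PCAF, was between 6.10 and 8.93 FPKM in all libraries (log2 fold change -0.05, adjusted p = 0.772 by limma). The processed pseudogene Kat2b-ps matches 53.3% of the length of the Kat2b transcript at 95.1% identity, and how reads were shared is not known.

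None of the 5 genes of the MYST family (Kat5, Kat6a, Kat6b, Kat7 and Kat8) was called by limma, although Kat6b had an unadjusted p under 0.05. Their log2 fold changes ran from -0.12 for Kat6a, which encodes MOZ, to 0.23 for its paralogue Kat6b. Kat5, which encodes TIP60 of the NuA4 complex, was between 16.99 and 21.98 FPKM in all libraries, Kat7, which encodes HBO1, between 17.4 and 20.3 FPKM, and Kat8, which encodes MOF, between 10.6 and 13.2 FPKM. Rnaseh2c, on the opposite strand, overlaps 12.1% of the exonic bases of Kat5. It was at 41.0 to 53.7 FPKM in the controls and 59.3 to 83.7 FPKM in the knockout, and whether reads were counted by strand is not given. Kat6b gave 10.8, 11.9, 13.9 and 13.2 FPKM in the controls against 15.1, 14.7, 13.6 and 15.5 FPKM in the knockout (limma adjusted p = 0.0812), with Med23-/- replicate 3 inside the control range. Of the 3 coactivators that bring acetyltransferases to nuclear receptors, among them the thyroid hormone receptors, Ncoa1 rose. Ncoa1 (chromosome 12, 4247362 to 4477182) gave 13.9, 14.5, 15.4 and 15.3 FPKM in the controls against 18.9, 18.4, 18.1 and 23.0 FPKM in the knockout, without overlap. Its log2 fold change was 0.38 (± 0.09 SE, adjusted p = 0.0108 by limma), while Ncoa2 and Ncoa3 had log2 fold changes of -0.07 and 0.14 and were not called.

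Brd2 and Brd3, the 2 genes grouped here as bromodomain readers, and all 5 scaffold genes were left without a call by limma. Each of these groups had 1 unadjusted p under 0.05. Brd2, one of the BET proteins that bind acetylated histones and recruit elongation factors, gave 65.6, 53.6, 61.3 and 65.9 FPKM in the controls against 53.2, 56.1, 51.1 and 54.9 FPKM in the knockout. Its limma adjusted p was 0.119, and 0.0379 without Med23+/+ replicate 2, its lowest control library. Brd3 was between 25.4 and 31.4 FPKM throughout (log2 fold change 0.06). The NCoR scaffold gene Ncor1, which binds thyroid hormone receptors when no hormone is present, lay between 49.95 and 60.4 FPKM in all 8 libraries (log2 fold change -0.05). Sin3a and Sin3b, the scaffolds of HDAC1 and HDAC2, had log2 fold changes of -0.03 and 0.17, and Rcor1, which encodes CoREST, had one of 0.06. Rcor2 gave 14.2, 15.3, 9.08 and 13.8 FPKM in the controls against 19.9, 20.3, 14.3 and 17.3 FPKM in the knockout. Each Med23-/- library was above the control of the same number, which was not taken as its pair, but Med23-/- replicate 3 lay within the control range. The log2 fold change of Rcor2 was 0.44 with a limma adjusted p of 0.0655, which became 0.0387 without that library. Its limma adjusted p was also under 0.05 with a covariate for replicates 1 and 2 against 3 and 4 (0.0237) and with sample weights (0.0370). For 26 of the 29 genes not called, the 95% interval on the log2(FPKM + 1) scale excluded 1.5-fold in either direction, and the exceptions were Hdac9, Hdac11 and Rcor2. That scale understates the fold changes of low genes. For such genes, among them Sirt5 at 3.04 FPKM in the controls (interval -0.39 to 0.42), a change of 1.5-fold in FPKM is thus not excluded as firmly.

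**Figure D3:**
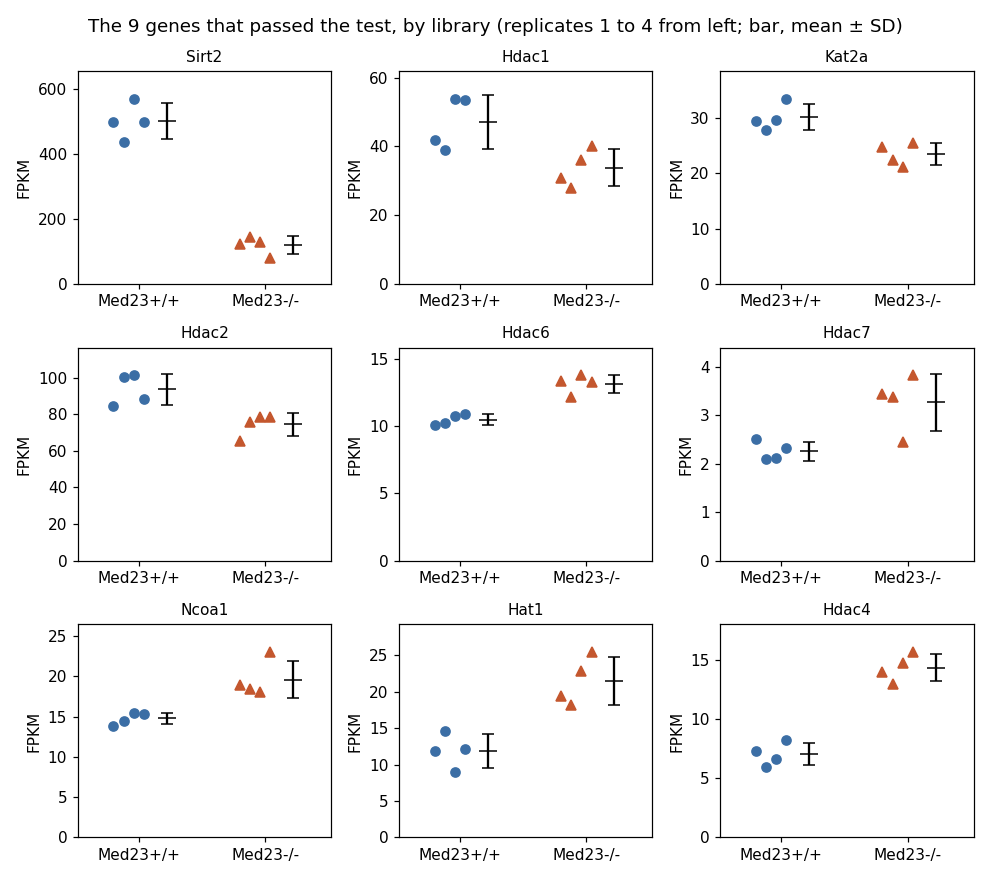
FPKM of the 9 called genes in each library, replicates 1 to 4 from left to right within a genotype, with the mean and SD beside them (n = 4 each). The genotypes are separate for Sirt2, Kat2a, Hdac2, Hdac6, Ncoa1, Hat1 and Hdac4, and overlap for Hdac1 and Hdac7.

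Whether related genes changed unequally was asked by comparing the log2 ratio of their FPKM in each library between the genotypes, for 10 pairs. After adjustment over the 10 pairs no ratio passed 0.05 in the two-sided exact permutation test, while 4 reached p = 0.0286, the lowest possible with 4 libraries a side, which became 0.0714 after adjustment. So few pairs at the lowest possible p cannot pass this adjustment, so the test does not show that the ratios were unchanged. These 4 pairs had no overlap between the genotypes. The ratio of Sirt1 to Sirt2 was -6.00 ± 0.17 in the controls against -3.85 ± 0.40 in the knockout on the log2 scale, and that of Hdac4 to Hdac5 was -0.35 ± 0.23 and 0.46 ± 0.38 (SD, n = 4 each). Hdac4 was below Hdac5 in every Med23+/+ library and above it in every Med23-/- library. The log2 ratio of Kat6a to Kat6b was 1.48 ± 0.05 in the controls against 1.11 ± 0.12 in the knockout, and that of Brd2 to Brd3 was 1.18 ± 0.08 and 0.93 ± 0.10 (SD, n = 4 each). Neither gene of these last pairs was called by itself. The ratio of Ep300 to Crebbp was -0.27 ± 0.08 in the controls against -0.36 ± 0.19 in the knockout (SD, n = 4 each, exact permutation p = 0.457), and that of Hdac1 to Hdac2 was -1.004 ± 0.27 and -1.15 ± 0.20 (SD, n = 4 each, exact permutation p = 0.371).

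**Figure D4:**
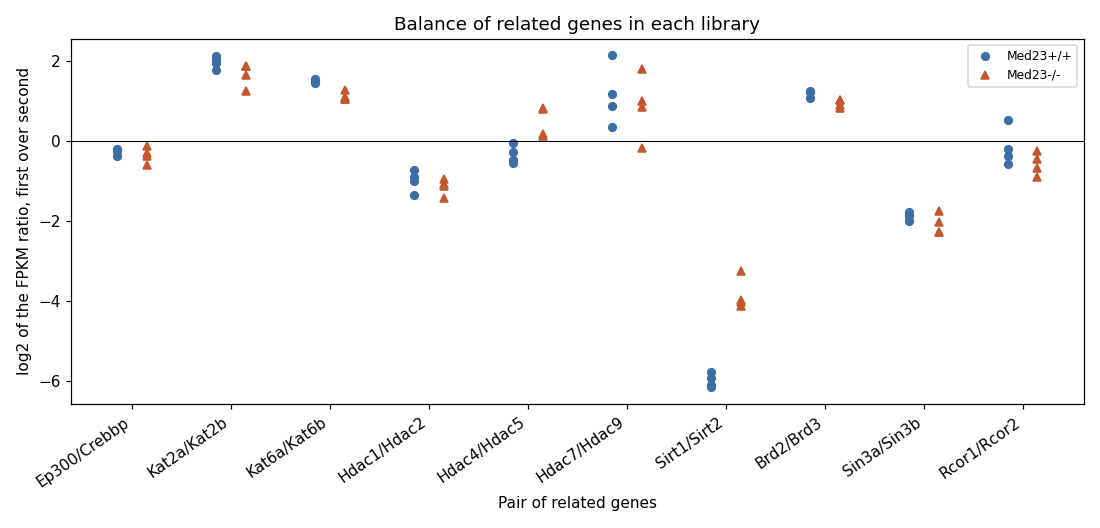
Log2 ratio of the FPKM of 10 pairs of related genes in each library (circles, 4 Med23+/+ libraries, and triangles, 4 Med23-/- libraries). Hdac4/Hdac5 changes sign between the genotypes, and Ep300/Crebbp lies below 0 in all 8 libraries.

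The other subunits of these complexes and further bromodomain genes were counted from a list of 88 genes, of which 85 were tested. Of the 85, 6 were lower and 8 higher, 16.5% in all, against the 30.0% called among all genes tested. The median log2 fold change of the list was -0.000909, and none of its genes was called with a log2(FPKM + 1) change of more than 2-fold. Among the called genes, the 3 with the largest fall were Baz1a, a subunit of chromatin remodelling complexes, Gatad2a of NuRD and Hmg20b of CoREST, with log2 fold changes of -0.84, -0.38 and -0.33 (limma adjusted p = 0.00150, 0.00769 and 0.00855). Baz1a went from 8.26 ± 1.01 to 4.20 ± 0.912 FPKM (SD, n = 4 each). The 3 called genes with the largest rise were Atad2, an ATPase with a bromodomain, Jade1, a scaffold of the KAT7 complex, and Tada3, an adaptor of the KAT2A complexes, with log2 fold changes of 0.86, 0.60 and 0.53 (limma adjusted p = 0.0149, 0.00225 and 0.00127). Of the 11 NuRD subunits, which work with HDAC1 and HDAC2, 3 were lower (Gatad2a, Mbd3 and Chd4) and none was higher, 27.3% called. Among all genes tested 14.1% were called lower and 15.9% higher, and with 11 genes the count does not set these subunits apart. Of the 33 tested partners of acetyltransferases 3 were higher and none lower, 9.09% called, below the 30.0% of all genes tested. No SIN3 subunit among 11 was called by limma, and 2 had an unadjusted p under 0.05, among them Sap30 with a log2 fold change of -0.45 (adjusted p = 0.0901 by limma), lower than that of Gatad2a. The count of lower genes fell from 6 to 3 without Med23+/+ replicate 3 or replicate 4, and that of higher genes from 8 to 5 without Med23+/+ replicate 1 or Med23-/- replicate 4.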

How the data were processed

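RNA-seq was performed on iOLs and gave 8 libraries. Per the labels and the study's methods, the authors removed adapters by Cutadapt, mapped the reads on mm10 by Tophat2 (default parameters) and obtained gene values from cuffdiff (-b -u). Tool versions, the annotation and the library normalization are not given in the sources used here. The authors deposited FPKM per gene and library, which were used as deposited, with 0 library columns left out. The table also holds the authors' own comparison (means, fold changes and p-values), which was not used.

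Values were transformed to log2(FPKM + 1), so that fold changes of low genes are understated, and every gene whose mean reached 1 FPKM entered a comparison by limma 3.58.1, run under R 4.3.3 (lmFit, eBayes with a trend, Benjamini-Hochberg over all 12328 genes). For ratios of related genes the test was an exact permutation of the libraries, two-sided. The limma step was first tested on simulated data. All 38 genes are reported, with every library for called genes and for Ep300 and Crebbp, and of the called partner genes the 3 largest changes in each direction. Sap30, Sirt7, Hdac11, Kat6b, Brd2, Rcor2 and the counts of NuRD, SIN3 and acetyltransferase partners were picked for the text after their values were seen. The genes and lists were chosen with earlier results of these data known. Coordinates and overlaps come from GENCODE vM21 (mm10), promoters from RefSeq. Near copies were searched with blastn at 95% identity over at least 200 bases. Alternatives were another pseudocount, other filters and scalings, no trend, sample weights, a replicate block, a covariate for replicates 1 and 2 against 3 and 4, and leaving out each library. Python 3.11.15, numpy 2.4.6, pandas 2.3.3, scipy 1.17.1 and matplotlib 3.10.9 were used.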

Additional observations from a re-analysis of the deposited data

Results flagged for a closer look

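Within each genotype, every gene of the set was searched for a library far from the other 3 (Dixon's criterion at the 95% level), in 76 groups of 4 libraries. Chance flags about 1 in 20 groups, and 3 were found. Hdac8, a class I deacetylase, was at 9.78 FPKM in Med23+/+ replicate 3, while the other controls lay between 7.95 and 8.26 FPKM. Hdac11, the class IV deacetylase, was at 5.51 FPKM in Med23-/- replicate 4, below the other knockout libraries at 7.64 to 7.68 FPKM. Sirt5, a mitochondrial sirtuin, was at 2.16 FPKM in Med23-/- replicate 2 and between 3.26 and 3.34 FPKM in the others. None of these 3 genes was called by limma with all libraries, and none had an unadjusted p under 0.05.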

How the results depend on the processing

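Of the 9 called genes, 6 (Sirt2, Kat2a, Hat1, Ncoa1, Hdac4 and Hdac6) kept their direction and an adjusted p under 0.05 in every one of the 17 alternatives. With quantile normalization the genes called lower went from 4 to 2, without Hdac1 (limma adjusted p = 0.0609) and Hdac2 (0.135), and Hdac7 was lost too (0.220). The partner genes called lower went from 6 to 3 under the same setting. Without a filter on low values the limma adjusted p was 0.0511 for Hdac1 and 0.0646 for Hdac7, and 19.8% of all genes were called in place of 30.0%. A pseudocount of 0.1 took Hdac4 past 2-fold, for 2 genes in place of 1, and a minimum mean of 5 FPKM left 5 partner genes called higher in place of 8. Leaving out 1 library at a time gave 2 to 5 genes lower, 4 to 6 higher and 1 to 2 past 2-fold, 3 to 8 partners lower and 5 to 7 higher, 25 genes at 10 FPKM or more and 0 of 10 ratios past the adjusted threshold. For the ratios this count says little, since a few pairs at the lowest possible p cannot pass the adjustment.

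Sirt7 was called with sample weights (limma adjusted p = 0.0407). Changes of sign occurred for genes that were not called. With quantile normalization the log2 fold change became 0.050 for Crebbp, 0.0043 for Kat7, -0.092 for Hdac10, -0.050 for Sirt1, -0.091 for Sirt3, -0.13 for Sirt5 and 0.060 for Ncor1. With sample weights it became -0.087 for Sirt3 and -0.16 for Sirt5. Leaving out 1 library gave -0.16 to 0.054 for Crebbp, -0.13 to 0.031 for Kat2b, -0.070 to 0.0010 for Kat7, -0.091 to 0.0054 for Kat8, -0.14 to 0.0097 for Ncoa2, -0.021 to 0.094 for Hdac10, -0.022 to 0.069 for Sirt1, -0.055 to 0.13 for Sirt3, -0.10 to 0.17 for Sirt5, -0.0056 to 0.15 for Sirt6, -0.087 to 0.012 for Sin3a, -0.023 to 0.12 for Rcor1, and -0.58 to 0.074 for the change in the log2 ratio of Hdac7 to Hdac9. The causes were not tested.

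The labels number the replicates of both genotypes, but same-numbered libraries deviated together with r = 0.130, -0.0960, -0.0260 and 0.159, so the numbers were not taken as pairs. With the replicate block, 4 genes were lower and 6 higher, Rcor2 being added (limma adjusted p = 0.00718), and 6 and 8 partners were called. Paired by number, the exact permutation test of the ratios cannot go below p = 0.125, and 0 pairs passed. Depth is unknown, so the counting error of low genes such as Hdac9 cannot be given.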

Other observations

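The genes next to the called genes were looked up after the values of the called genes were seen. Nfkbib, which encodes an inhibitor of NF-kappaB, lies on the opposite strand at the start of Sirt2 (chromosome 7, 28758251 to 28767512 on mm10), and 42 exonic bases are common to the pair. Nfkbib gave 38.4, 35.7, 31.6 and 32.7 FPKM in the controls and 13.3, 13.8, 11.4 and 14.7 FPKM in the knockout, so every knockout library lay below every control. Its log2 fold change was -1.31 ± 0.10 SE (adjusted p = 2.77e-05 by limma), beside -2.10 for Sirt2. Hnrnpl, the neighbour on the other side, had a log2 fold change of 0.01 (adjusted p = 0.979 by limma). The overlap is 0.834% of the exonic bases of Sirt2, and whether reads were counted by strand is not given in the sources used here.

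Of 18 tested neighbours of the 9 called genes, 6 were called, 4 in the direction of the called gene and 2 in the opposite direction, and 30.0% of all genes tested were called. These neighbours lay up to 369190 bases from the called gene. Among them Marcks, 131486 bases from Hdac2, fell from 512 ± 21.3 to 302 ± 49.2 FPKM (SD, n = 4 each). Suv39h1, which encodes a histone methyltransferase and lies 113282 bases from Hdac6, rose from 14.5 ± 1.37 to 18.4 ± 1.59 FPKM (SD, n = 4 each). The 2 in the opposite direction were Ptrhd1, 7412 bases from Ncoa1, and Asb1, 369190 bases from Hdac4. Ptrhd1 fell from 5.31 ± 0.538 to 3.57 ± 0.212 FPKM and Asb1 from 19.2 ± 0.879 to 14.1 ± 1.61 FPKM (SD, n = 4 each), while Ncoa1 and Hdac4 rose.

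The log2 fold change of Hdac9, the lowest of the acetylation genes, was -0.07 within replicates 1 and 2 and 0.94 within replicates 3 and 4, and the difference between these values was not tested. Hdac1, Kat2b and Rcor2 had replicates 1 and 2 apart from replicates 3 and 4, in the same direction, in both genotypes, 7.89% of the acetylation genes beside 11.3% of all genes tested.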
